A study of Homo sapiens with 6 samples.

Results

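The HLA class II pathway was followed through 7 genes in Cal27 cells, a line from a human squamous carcinoma of the tongue. The 7 genes are CIITA, CD74, HLA-DRA, HLA-DRB1, HLA-DPA1, HLA-DMA and HLA-DMB, and each matched 1 of the 57820 counted Ensembl identifiers. They were taken as a named set, with earlier results of these data known. Counts of raw reads per gene were examined in 6 libraries of total RNA, 2 for each of 3 groups. The CRNN group was transduced with a lentivirus that carries cornulin (CRNN), the GFP group with the GFP vector, and both were harvested 48 h later, after exposure to 8 µg/ml polybrene. The third group was untreated Cal27 cells, whose genotype is given as WT. For the untreated cells neither a harvest time nor polybrene is given, so in comparisons with them these cannot be told apart from the virus. The promoter that drives the insert, the share of cells transduced and whether the cells were cloned are not given. All 6 libraries carry the batch number 1.

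HLA class II molecules are pairs of an alpha and a beta chain that display peptides from the endosome to CD4+ T cells. CIITA is the coactivator that switches their genes on: it binds no DNA itself but docks on a complex of RFX, NF-Y and CREB proteins at the X and Y boxes of their promoters. CD74, the invariant chain, fills the groove of new class II molecules and escorts them to the endosome, where HLA-DM exchanges its remnant for antigenic peptide. Class II is constitutive in professional antigen presenting cells, while epithelial and carcinoma cells take it up mainly under interferon-gamma, which raises CIITA in part through the factor IRF1.

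Promoters of CD74, HLA-DRB1 and HLA-DMA are shown because these 3 members of the pathway carry the core of the Y box, to which NF-Y binds, and had their highest level in the same library. The sequences are from RefSeq (GRCh38.p14), run 5′ to 3′ along the gene's own strand from 250 bases before the start site to 50 after it, and have capitals at CCAAT (or ATTGG on the other strand) and at AGCAACNGA, a core of the X box (or TCNGTTGCT).

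CD74, chr5:150412861-150413160, minus strand: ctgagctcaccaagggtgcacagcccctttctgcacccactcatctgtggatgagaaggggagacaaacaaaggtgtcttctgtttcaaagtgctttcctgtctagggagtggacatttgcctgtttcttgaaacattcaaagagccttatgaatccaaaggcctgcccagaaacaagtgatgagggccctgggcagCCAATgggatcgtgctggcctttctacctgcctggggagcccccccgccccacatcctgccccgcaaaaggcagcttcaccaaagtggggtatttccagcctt

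HLA-DRB1, chr6:32589799-32590098, minus strand: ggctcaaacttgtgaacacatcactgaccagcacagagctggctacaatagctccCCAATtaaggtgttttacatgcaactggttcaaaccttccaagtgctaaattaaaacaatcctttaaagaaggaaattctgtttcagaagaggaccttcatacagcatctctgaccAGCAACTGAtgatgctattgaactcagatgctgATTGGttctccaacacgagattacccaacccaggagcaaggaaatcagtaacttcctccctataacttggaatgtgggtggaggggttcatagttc

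HLA-DMA, chr6:32953048-32953347, minus strand: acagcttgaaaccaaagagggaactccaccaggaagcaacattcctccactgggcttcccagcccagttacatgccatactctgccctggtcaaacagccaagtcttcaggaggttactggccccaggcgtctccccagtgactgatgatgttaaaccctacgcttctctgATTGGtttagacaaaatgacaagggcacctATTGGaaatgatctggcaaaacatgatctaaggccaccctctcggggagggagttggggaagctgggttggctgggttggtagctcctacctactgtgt

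In CD74 the CCAAT begins 53 bases upstream of the start. In HLA-DRB1 an ATTGG begins 46 bases upstream, with the X box core 79 bases upstream, and a further CCAAT lies 195 bases upstream. HLA-DMA holds ATTGG at 79 and 49 bases upstream. Of the 7 members, 5 had a promoter in the reference used (not CIITA or HLA-DRA). Of these, 4 held CCAAT on either strand and 2 the X box core. HLA-DPA1 had windows at 2 start sites, of which only the second held the X box core and neither held CCAAT. No printed match of either motif overlaps a match of the other. Over all 35116 promoter windows of 300 bases, 34.6% held CCAAT on either strand and 0.965% held AGCAACNGA, so CCAAT alone is frequent. A match describes these letters in the reference and is not a measured binding site.

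The libraries held from 11817105 to 28041227 counts, and 3 counts, taken as the floor of detection, corresponded to between 0.114 and 0.239 CPM (the usual normalised read count, relative to the library's total scaled by its TMM factor). CRNN had 21256 and 23062 counts in the CRNN libraries and between 32 and 92 in the other 4, as the labels say. Untreated replicate 1 stood apart from the other libraries in many genes, the class II members among them, so the members' comparisons with untreated cells are also given without it. The cells carried squamous markers throughout: the 9 genes of that list, among them KRT5 and TP63, summed to between 4099 and 6236 CPM. The 10 markers of professional antigen presenting and other immune cells summed to between 7.32 and 11.5 CPM, most of it CD14. Of that list, CD1C had 0 counts in all 6 libraries, MS4A1 had 1 count in a single library and CD79A at most 2 counts. ITGAX had at most 5 counts and CD3E at most 8, while CSF1R had between 22 and 47 and LYZ between 10 and 20. PTPRC, the CD45 antigen of leukocytes, had between 5 and 11 counts. The immune sum was 7.32 CPM in untreated replicate 1, of which CD14 made up 138 of 192 counts, and AIF1 of that list had its highest count there, at 6 against 1 to 3 elsewhere. LYZ (0.420 CPM) and CD3E (1 count) had their lowest CPM there.

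CIITA, the switch of the pathway, was measured at low but countable levels (ENSG00000179583.13; GRCh38 chromosome 16, 10866222 to 10943021, plus strand). It had 158 and 156 counts in the CRNN libraries, or 7.15 and 6.95 CPM. In GFP replicates 1 and 2 it had 36 and 77 counts, or 1.87 and 6.14 CPM. In untreated replicates 1 and 2 it had 34 and 112 counts, or 1.30 and 4.48 CPM. The CRNN libraries were the 2 highest of the 6 and lay close together, while each control group was split between a low and a high library. In a gene's deviation from its mean log2 CPM, the GFP libraries also had the strongest trends of the 6 with GC content, opposite in sign. Spearman's rho across 11473 genes, which are not independent replicates, was 0.626 in replicate 1 and -0.382 in replicate 2. With transcript length rho was -0.101 and 0.404, the latter the strongest of the 6. The part of these trends in the split was not tested. The exact 95% Poisson intervals, which cover counting error only, ran from 1.31 to 2.58 CPM in GFP replicate 1 and from 4.84 to 7.67 in GFP replicate 2, so these intervals did not overlap. The interval of GFP replicate 2 overlapped those of both CRNN libraries (5.90 to 8.13 CPM in CRNN replicate 2). DEXI, a gene on the other strand whose span covers 13578 bases of CIITA, had between 1 and 8 counts in a library. The strand setting of the counting is not given, and the part of DEXI in the CIITA counts was not tested.

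**Figure D1:**
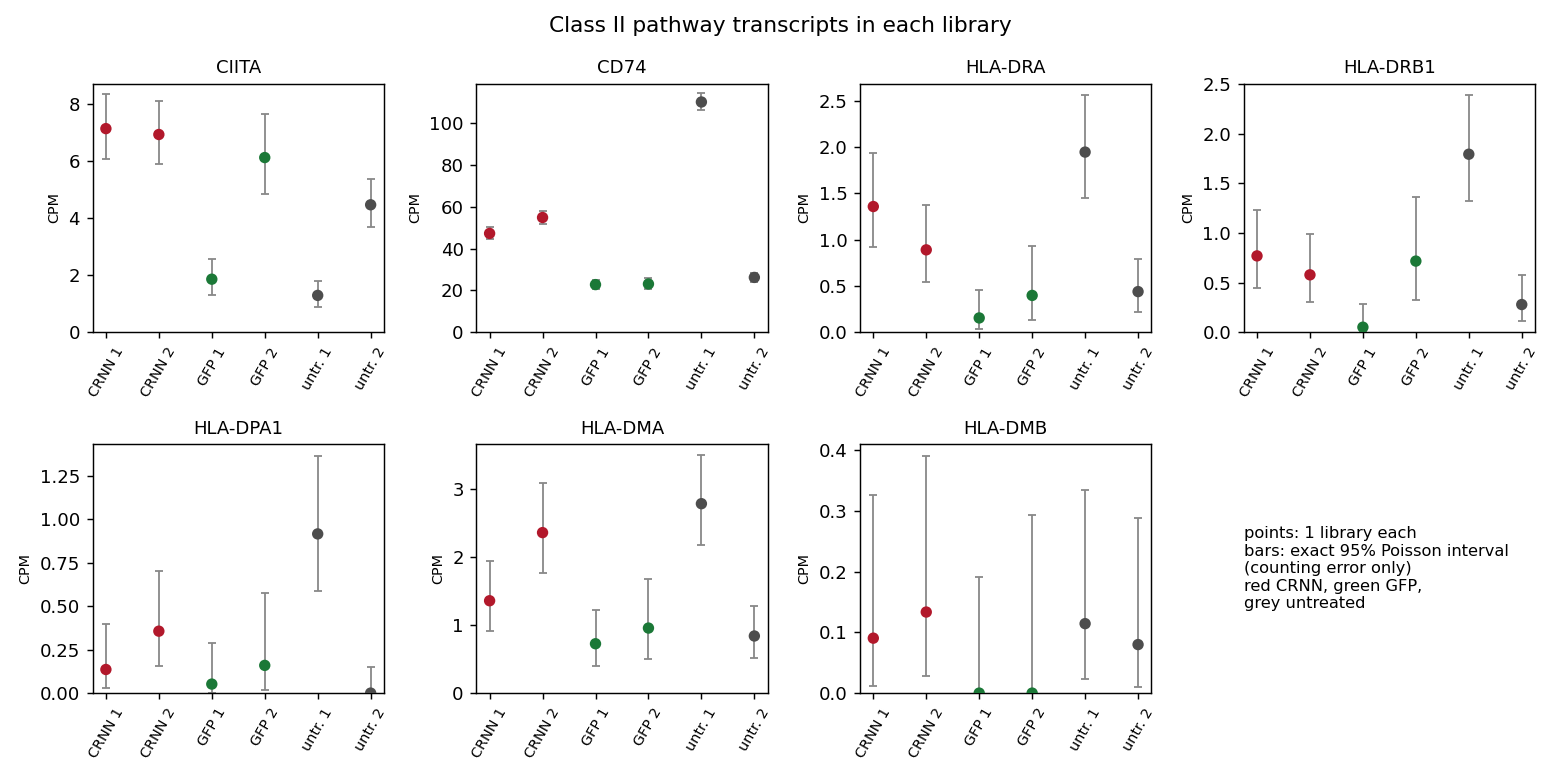
Level of the 7 class II pathway genes in CPM (linear axis from 0) in each of the 6 libraries; points are single libraries and bars are exact 95% Poisson intervals of the count. CIITA is low in GFP replicate 1 and untreated replicate 1, whereas CD74, HLA-DRA, HLA-DRB1, HLA-DPA1 and HLA-DMA have their highest point in untreated replicate 1.

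CD74, the invariant chain, was the most abundant of the 7 transcripts and followed another order (ENSG00000019582.10; chromosome 5, 150401637 to 150412969, minus strand). It had 1044 and 1232 counts in the CRNN libraries, or 47.3 and 54.9 CPM. In GFP it had 440 and 290 counts, or 22.8 and 23.1 CPM, the closest pair of the 3 groups. In untreated replicates 1 and 2 it had 2884 and 656 counts, or 110 and 26.2 CPM. Untreated replicate 1 was thus 2.01 times as high as the next library, CRNN replicate 2, and the CRNN libraries lay between the untreated ones. The interval of untreated replicate 2 (24.3 to 28.3 CPM) overlapped those of the GFP pair (20.7 to 25.0 and 20.5 to 25.9) and not that of either CRNN library, the lower of which ran from 44.4 to 50.2 CPM. In a bulk sample a change in the share of cells with a transcript and a change of its level per cell cannot be told apart.

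CIITA and CD74 therefore did not move together across all the libraries, as the plot of CD74 against CIITA shows. That they differ was known when the members were chosen, so it is a description and not a test. The library with the least CIITA, untreated replicate 1, had the most CD74. For each CIITA read there were 84.8 CD74 reads there, against 6.61 and 7.90 in the CRNN pair, 12.2 and 3.77 in the GFP pair, and 5.86 in untreated replicate 2. Without untreated replicate 1 the range was 3.77 to 12.2. Among these remaining libraries the CRNN pair was highest in both genes. GFP replicate 1 was lowest in both, though in CD74 only just under GFP replicate 2 (22.8 against 23.1 CPM). The GFP pair differed in CIITA beyond the counting intervals, while its CD74 levels did not. The ratio was not tested between groups.

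**Figure D2:**
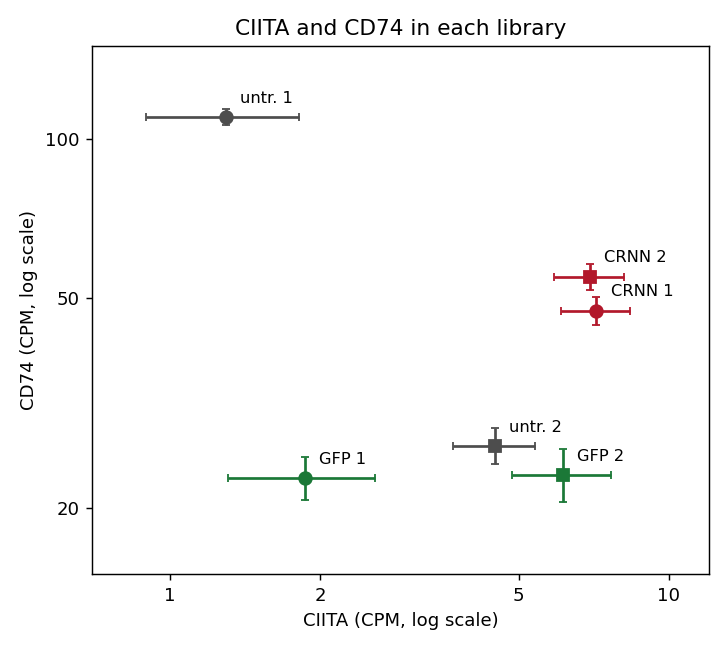
CD74 against CIITA in CPM (both axes logarithmic), 1 point per library with exact 95% Poisson intervals; circles are replicate 1 and squares replicate 2. Untreated replicate 1 lies at the top left with 1.30 CPM of CIITA and 110 of CD74, the CRNN libraries lie together at the right, and the GFP pair shares its CD74 level but not its CIITA level.

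HLA-DRA and HLA-DRB1, the alpha and the main beta chain of HLA-DR, were detected at low counts. HLA-DRA (ENSG00000204287.9; chromosome 6, 32439878 to 32445046, plus strand) had 30 and 20 counts in CRNN, 3 and 5 in GFP, and 51 and 11 in untreated replicates 1 and 2. These were 1.36 and 0.890 CPM, 0.155 and 0.398, and 1.95 and 0.440 CPM. The CRNN pair lay above the GFP pair without overlap, and untreated replicate 1 was above them all. HLA-DRB1 (ENSG00000196126.6; chromosome 6, 32577902 to 32589848, minus strand) had 17 and 13 counts in CRNN, 1 and 9 in GFP, and 47 and 7 in the untreated pair. In CPM GFP replicate 2 (0.717) lay between the CRNN libraries (0.770 and 0.579), so these groups overlapped. HLA-DRB5, a gene of similar sequence near HLA-DRB1, had between 0 and 6 counts. Reads shared by similar genes can be split or lost in counting, so the level of HLA-DRB1 is uncertain.

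HLA-DPA1, the alpha chain of HLA-DP, was at or near the floor outside untreated replicate 1 (ENSG00000231389.3; chromosome 6, 33064569 to 33080775, minus strand). It had 3 and 8 counts in CRNN, 1 and 2 in GFP, and 24 and 0 in untreated replicates 1 and 2. The 24 counts are 0.916 CPM with an interval of 0.587 to 1.36, and the 0 counts of untreated replicate 2 allow up to 0.147 CPM by the same interval. Its partner HLA-DPB1, whose span overlaps it by 4786 bases on the other strand, had 2 and 2, 1 and 2, and 6 and 0 counts. The chains of HLA-DP thus shared their highest library with those of HLA-DR.

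HLA-DMA and HLA-DMB form HLA-DM, the editor that loads peptide onto class II. HLA-DMA (ENSG00000204257.10; chromosome 6, 32948613 to 32969094, minus strand) had 30 and 53 counts in CRNN, 14 and 12 in GFP, and 73 and 21 in the untreated pair. These were 1.36 and 2.36 CPM, 0.726 and 0.956, and 2.79 and 0.840 CPM. As for CD74, the CRNN pair lay above the GFP pair and untreated replicate 1 above both. BRD2, on the other strand, shares 501 bases with the span of HLA-DMA and had between 1020 and 2704 counts, also highest in untreated replicate 1, and since the strand setting of the counting is not given, its part in the HLA-DMA counts was not tested. HLA-DMB (ENSG00000242574.4; chromosome 6, 32934629 to 32941028, minus strand) had 2 and 3 counts in CRNN, 0 and 0 in GFP, and 3 and 2 in the untreated pair, at or under the floor in all 6 libraries, so no fold is given. A longer gene on the same strand, ENSG00000248993, spans 4510 bases of HLA-DMA and 3665 of HLA-DMB and had 0 counts in all 6 libraries. Reads that fall in 2 genes can be lost in counting, and the part of this in the HLA-DMA counts and in the low HLA-DMB count was not tested.

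Per length, CD74 exceeded every HLA member in each library. As RPKM, the CPM per kilobase of annotated exon, CD74 had 11.3 ± 1.19 (SD, n = 2) in CRNN and 5.07 ± 0.0474 (SD, n = 2) in GFP cells. HLA-DRA, with the highest mean of the HLA members in CRNN and untreated cells by this measure, had 0.904 ± 0.266 (SD, n = 2) in CRNN and 0.223 ± 0.138 (SD, n = 2) in GFP cells. HLA-DMA had 0.738 ± 0.281 (SD, n = 2) and 0.334 ± 0.0647 (SD, n = 2), above HLA-DRA in both GFP libraries and in CRNN replicate 2 (0.936 against 0.716), so the order of these neighbours was not stable. CD74 stood between 9.57 and 40.3 times above HLA-DRA per length over the 6 libraries. CIITA is left out of this order, since its annotated exons add up to 22553 bases with long isoforms that these cells need not use.

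The remaining class II chains were not detected above a few reads. Of 11 such genes, 9 matched a counted identifier (not HLA-DRB3 or HLA-DRB4) and none passed the filter on low counts. HLA-DQA2, HLA-DQB2 and HLA-DOA had 0 counts in all 6 libraries, HLA-DQA1 had 1 count in a single library, and so had the pseudogene HLA-DRB6. HLA-DQB1 had 9 counts in untreated replicate 1 and at most 3 elsewhere, and HLA-DOB had at most 2. The 9 genes summed to 22 counts in untreated replicate 1 and to between 1 and 10 counts in each of the other 5 libraries. At this depth lower levels were not detectable.

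The comparison of CRNN with GFP asks what changes with the insert carried by the virus. Of the 7 members, CIITA, CD74, HLA-DRA and HLA-DMA had both CRNN libraries above both GFP libraries, HLA-DRB1 and HLA-DPA1 overlapped, and HLA-DMB, at or under the floor throughout, is read neither way, while 19.4% of 16396 tested genes had their CRNN libraries above in that way. Only 5 members passed the filter on low counts and were tested (not HLA-DPA1 or HLA-DMB), and HLA-DRA and HLA-DRB1 passed it through the libraries where they are high. No member passed at an adjusted p under 0.05 by edgeR, DESeq2 or limma-voom, where edgeR called 0.0183% of all genes. DESeq2 gave no adjusted p for HLA-DRA, HLA-DRB1 or HLA-DMA here, so it could not call these. At an unadjusted p under 0.05 there was 1 member, HLA-DRA, against 4.39% of all genes (edgeR).

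CD74 was 2.22-fold higher in CRNN than in GFP by the fit (log2 fold change 1.15, SE 0.54, n = 2 per group; edgeR, adjusted p = 0.999), with both CRNN libraries above. HLA-DRA was 4.25-fold higher (2.09, SE 0.86; adjusted p = 0.999), on 3 and 5 counts in GFP. HLA-DMA was 2.23-fold higher (1.16, SE 0.64) and HLA-DRB1 1.95-fold (0.96, SE 1.11). CIITA was 1.79-fold higher (0.84, SE 0.64; adjusted p = 0.999). None of these differences can be told from the spread between replicates by this test. The spread is shared by all groups and takes in the untreated pair: without untreated replicate 1 the SE of CD74 was 0.26 at a log2 fold change of 1.18 (adjusted p = 0.287). The CIITA value depended on 1 GFP library, with a log2 fold change of 0.21 without GFP replicate 1 and 1.94 without GFP replicate 2. After the correction for GC content and length CIITA was at 1.14 (SE 0.68). HLA-DRB1 went from -0.08 without GFP replicate 1 to 3.59 without GFP replicate 2.

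**Figure D3:**
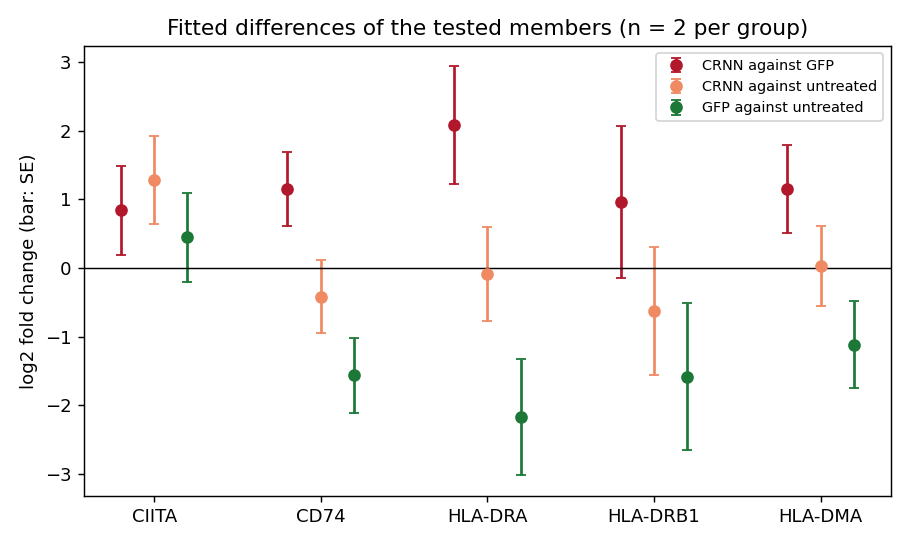
Log2 fold change with its SE (edgeR, n = 2 per group) of the 5 tested members in the 3 comparisons. The values for CRNN against GFP are all positive, those for GFP against untreated are negative except for CIITA (0.45), and no point passed at an adjusted p under 0.05.

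In CRNN against untreated cells, CIITA was the 1 member of 7 with both CRNN libraries above both untreated ones, and 6 overlapped (HLA-DMB at the floor), against 18.7% of tested genes above in that way. CIITA was 2.44-fold higher (log2 fold change 1.29, SE 0.64, n = 2 per group; edgeR, adjusted p = 0.989). CD74 had -0.42 (SE 0.53), HLA-DRA -0.09 (SE 0.69), HLA-DRB1 -0.62 (SE 0.93) and HLA-DMA 0.03 (SE 0.59). No member passed by edgeR, DESeq2 or limma-voom, and at an unadjusted p under 0.05 edgeR had 0 members, with 0.0061% of all genes called and 4.48% at an unadjusted p under 0.05.

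These values rested on which untreated library was kept. Without untreated replicate 1, CD74 was at 0.96, HLA-DRA at 1.34, HLA-DRB1 at 1.25 and HLA-DMA at 1.15. All were on the side of CRNN, as was CIITA at 0.66. Without untreated replicate 2, CD74 was at -1.10, HLA-DRA at -0.79 and CIITA at 2.44. The lone untreated library is in each case assumed to vary like the other groups, so only sizes are given.

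In GFP against untreated cells, which compares the control virus with none, CD74 and HLA-DRA had both GFP libraries below both untreated ones, 4 of the 7 members overlapped and HLA-DMB is again read neither way, against 15.5% of tested genes below in that way. CD74 stood at -1.57 on the log2 scale (SE 0.55, n = 2 per group; edgeR, adjusted p = 0.711) and HLA-DRA -2.18 (SE 0.85; adjusted p = 0.711). HLA-DRB1 had -1.58 (SE 1.07), HLA-DMA -1.12 (SE 0.64) and CIITA 0.45 (SE 0.65). No member passed by edgeR, DESeq2 or limma-voom, and 0% of all genes were called by edgeR. CD74 and HLA-DRA had an unadjusted p under 0.05, as did 6.93% of all genes. Without untreated replicate 1 CD74 was at -0.21, HLA-DRA at -0.77, HLA-DMA at -0.04, HLA-DRB1 at 0.27 and CIITA at -0.22. CIITA was at 0.14 after the correction for GC content and length. Without untreated replicate 2, CD74 was at -2.27 and HLA-DRA at -2.90, the latter on few GFP counts. The untreated library kept there was the highest in both genes, and a lone library shows no spread of its own, so only sizes are given. The 3 comparisons share their libraries, so their values are not independent of each other.

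The genes of the proteins that hold CIITA at the promoter came next. All 7 genes of the complex (RFX5, RFXANK, RFXAP, NFYA, NFYB, NFYC and CREB1) were tested, 0 passed in any comparison by edgeR, and none reached an unadjusted p under 0.05 (0 genes). In CRNN against GFP 3 were positive and 4 negative, with a median log2 fold change of -0.12 beside -0.0017 for all genes. RFXAP, a subunit of the RFX complex, had 2.90 and 2.67 CPM in CRNN, 2.49 and 5.26 in GFP, and 0.877 and 2.36 in the untreated pair. Its lowest library was untreated replicate 1, as for CIITA, and its log2 fold change for GFP over untreated was 1.25 (SE 0.55; edgeR, adjusted p = 0.711), with 0.67 without untreated replicate 1, 0.60 without GFP replicate 2 and 2.10 without untreated replicate 2. NFYB, a subunit of NF-Y, had log2 fold changes of 0.33 (SE 0.30) for CRNN over GFP, -0.10 (SE 0.30) for CRNN over untreated and -0.43 (SE 0.30) for GFP over untreated (-0.26 without untreated replicate 1).

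Genes that carry the interferon-gamma signal to CIITA were tested as a list of 6 (IFNGR1, IFNGR2, JAK1, JAK2, IRF1 and SOCS1), and 0 passed in any comparison by edgeR. In CRNN against GFP 5 of 6 were positive, beside 49.9% of all genes, with a median log2 fold change of 0.42, and 0 had an unadjusted p under 0.05. IRF1, an interferon-induced factor that acts on the CIITA promoter, had 135 and 154 CPM in CRNN, 82.3 and 109 in GFP, and 55.6 and 120 in the untreated pair. IRF1 shared with CIITA its lowest library, untreated replicate 1, its next lowest, GFP replicate 1, and its highest pair, the CRNN libraries. JAK1 and SOCS1 of this list were instead highest in untreated replicate 1, and JAK2 in GFP replicate 2. How many of all genes share the order of CIITA was not counted. IRF1 was named after the values were seen, and its part in the CIITA level was not tested. Its log2 fold change was 0.60 over GFP (SE 0.37; edgeR, adjusted p = 0.999) and 0.72 over untreated cells (SE 0.37; adjusted p = 0.989), the latter 0.27 without untreated replicate 1. IFNGR1, a chain of the interferon-gamma receptor, had 25.8 and 33.0 CPM in CRNN, 17.7 and 20.6 in GFP, and 44.5 and 25.0 in the untreated pair. Its partner chain IFNGR2 had 349 and 450 counts in CRNN, 264 and 138 in GFP, and 681 and 363 in the untreated pair. In CPM both receptor chains were highest in untreated replicate 1, as CD74 was, and in both the GFP pair lay below the CRNN pair and below the untreated pair. Of all tested genes 19.4% had CRNN above GFP in that way, and 15.5% had GFP below untreated. In GFP against untreated IFNGR1 was the 1 gene of the 6 with an unadjusted p under 0.05, beside 6.93% of all genes. It stood at -0.86 (SE 0.33; edgeR, adjusted p = 0.711), and IFNGR2 at -0.71 (SE 0.34). Without untreated replicate 1 these were -0.40 and -0.25.

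Endosomal proteases and their helpers cut the invariant chain and make peptides. All 10 genes of this list were tested and 0 passed in any comparison by edgeR. In CRNN against GFP 7 were positive and 3 negative (median 0.24), while 49.9% of all genes were positive. CTSS, cathepsin S, which trims the invariant chain in antigen presenting cells, had 118 and 136 counts in CRNN, 18 and 59 in GFP, and 248 and 96 in the untreated pair. In CPM these were 5.34 and 6.06, 0.933 and 4.70, and 9.46 and 3.84. CTSS shared with CD74 its highest library and with CIITA its wide split of the GFP pair, and its log2 fold change for CRNN against GFP went from 1.06 (SE 0.68) to 0.29 without GFP replicate 1 and 2.63 without GFP replicate 2. CTSH, cathepsin H, was the list's 1 gene with an unadjusted p under 0.05 in that comparison (0.61, SE 0.26), beside 4.39% of all genes. It had 106 and 124 CPM in CRNN, 75.3 and 75.1 in GFP, and 116 and 95.6 in the untreated pair.

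**Figure D4:**
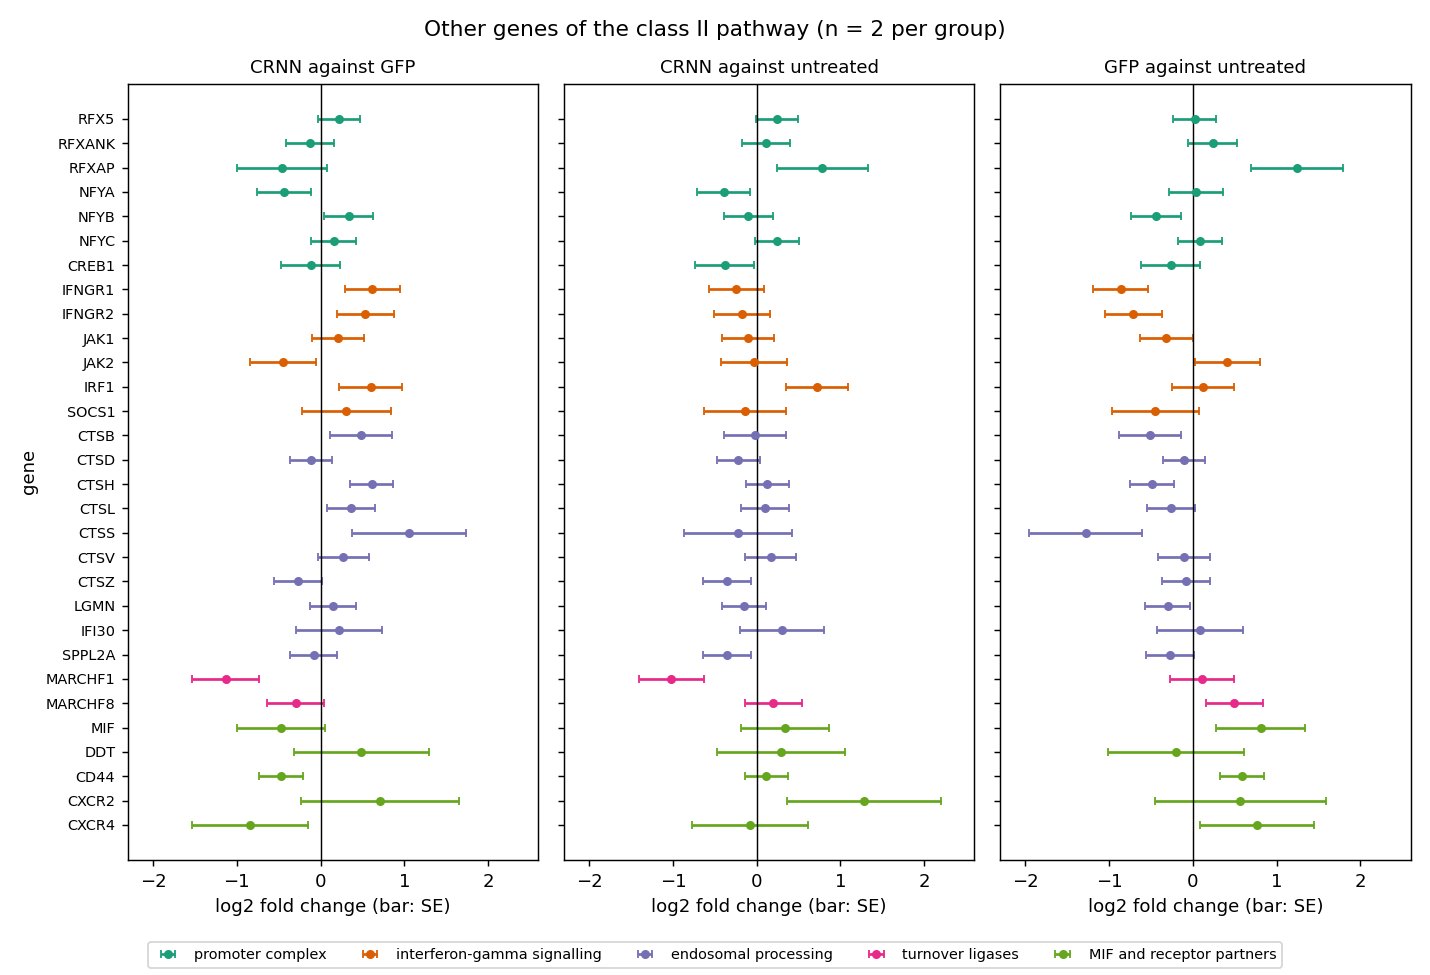
Log2 fold change with its SE (edgeR, n = 2 per group) of 30 further genes of the pathway in the 3 comparisons, coloured by list. CTSS (1.06) has the highest value in CRNN against GFP and MARCHF1 the lowest (-1.13), and no gene shown passed at an adjusted p under 0.05.

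MARCHF1 and MARCHF8 are membrane ubiquitin ligases, and MARCHF1 is known for removing HLA-DR from the surface of antigen presenting cells. MARCHF1 had 47 and 28 counts in CRNN, 72 and 46 in GFP, and 84 and 91 in the untreated pair. Its 2.13 and 1.25 CPM in CRNN lay below the 3.73 and 3.67 of GFP and the 3.20 and 3.64 of untreated cells without overlap. Of all tested genes 18.7% had their CRNN libraries below GFP in that way, and 18.4% below untreated. The log2 fold change was -1.13 against GFP (SE 0.40; edgeR, adjusted p = 0.999) and -1.02 against untreated cells (SE 0.39; adjusted p = 0.989). The unadjusted p was under 0.05 in both, as for 4.39% and 4.48% of all genes, and both comparisons share the CRNN pair. MARCHF1 did not stand out in untreated replicate 1. MARCHF8 had -0.30 (SE 0.34) and 0.20 (SE 0.34) in the same comparisons.

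CD74 also serves at the cell surface as a receptor for the cytokine MIF, together with CD44 and the chemokine receptors CXCR2 and CXCR4. All 5 genes of that list, with the MIF homologue DDT, were tested and 0 passed in any comparison by edgeR (unadjusted p under 0.05: 0 genes). CD44 had 717 and 676 CPM in CRNN, 953 and 976 in GFP, and 648 and 637 in the untreated pair. The GFP pair was highest, the reverse of the order for CD74 between CRNN and GFP, with a log2 fold change of -0.47 (SE 0.26) for CRNN against GFP and 0.59 (SE 0.26) for GFP against untreated. Of all tested genes 18.7% had both CRNN libraries below GFP, and 16.1% had both GFP libraries above untreated. MIF itself had between 12 and 20 counts in a library, and log2 fold changes of -0.47 (SE 0.52) for CRNN against GFP, 0.34 (SE 0.52) for CRNN against untreated and 0.81 (SE 0.53) for GFP against untreated. Without untreated replicate 1 the last 2 were 0.08 and 0.53. Overlapping genes were sought only for the class II genes, so the part of lost reads in the low MIF count was not tested.

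Beside the high class II levels of untreated replicate 1, several markers of the fixed lists stood apart in that library too. Of the squamous list, KRT17 had 1769 CPM there against 67.5 to 182 in the other libraries, SFN had 1015 against 279 to 366, and CDH1 had 281 against 73.2 to 116. KRT14 was lowest there, at 64.5 CPM against 123 to 274. The 3 endothelial markers with a counted identifier (VWF, CDH5 and CLDN5, not PECAM1) summed to 53.3 CPM there and to between 8.74 and 14.2 in the other libraries, mostly through CDH5, with 1307 counts against 140 to 302. VWF was also highest there, at 80 counts against 14 to 36, while CLDN5 had 11 counts there and between 3 and 23 elsewhere. The 5 fibroblast markers summed to 5.19 CPM there, within the 2.92 to 8.21 of the others. The part of these in the class II levels was not tested.

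The genes whose level over the 6 libraries was most like that of each member were sought among 11663 others whose mean log2 CPM was 1 or more (11664 for HLA-DMA), by Pearson's r of log2 CPM. With only 6 libraries in 3 groups many genes reach a high r, so these are descriptions without a test. For CIITA they were ARRDC3 (r = 0.998), PPFIBP2 (0.992) and SANBR (0.992), and 118 genes had r above 0.95. ARRDC3 had 36.0 and 36.5 CPM in CRNN, 16.2 and 33.3 in GFP, and 11.8 and 28.3 in the untreated pair, with the split of both control pairs seen for CIITA. For CD74 they were GPR161 (0.997), PIGH (0.996) and HDAC9 (0.994), with 85 genes above 0.95. The measure does not read the size of the differences: GPR161 had only between 8.13 and 9.69 CPM. HDAC9, a histone deacetylase, had 25.6 and 27.3 CPM in CRNN, 17.4 and 16.7 in GFP, and 40.3 and 16.7 in the untreated pair. For HLA-DMA they were RBM22 (0.993), WRNIP1 (0.988) and NRBP1 (0.986). No gene stood on more than 1 of these lists of 3.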

How the data were processed

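Per the labels, stranded total RNA libraries were read in pairs; the authors deposited counts, raw whole reads per gene without normalization, in 1 table. Of tools, the submitters' processing notes list HTSeq 0.6.1, STAR 2.6, FastQC 0.11.7, edgeR and bcl2fastq, beside the builds GRCh38, GRCh37 and hg19, without roles; annotation and strand setting are not given in the sources used here.

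Gene names and places were taken from GENCODE release 44 (GRCh38) by identifier without version; 51996 of 57820 identifiers had a name. A single edgeR model (version 4.0.16, R 4.3.3) took the counts of all 6 libraries (quasi-likelihood F test, TMM, filterByExpr with minimum count 10 and minimum total 15, no covariate). This left 16396 genes with 99.86% of counts. P-values are two-sided and adjusted by Benjamini and Hochberg over all these genes, with a threshold of 0.05. SE is the size of the log2 fold change divided by the square root of F. CPM of a single library is its count over its total times its TMM factor. The series' design text calls the 2 libraries of a group biological replicates without saying whether cultures or transductions were separate, so p-values measure only the spread between these libraries.

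Alternatives were RLE factors, library totals alone, no filter, 1 CPM in 2 libraries, DESeq2 1.42.0, limma-voom (limma 3.58.1), each pair of groups alone, a replicate block, a correction of each library's trend with GC content and transcript length (natural splines with 4 degrees of freedom, values for 97.17% of tested genes), that correction with the block, and each library left out. The procedure was tested on simulated data. The members and gene lists were chosen with earlier results of these data known. The text names all members, the other class II chains, the 3 genes most like CIITA, CD74 and HLA-DMA, and genes of each pathway list. The rule for these lists allowed the 4 with the smallest p over the 3 comparisons; the text keeps the first 2 and IRF1, a choice made after the values were seen. Marker genes and overlapping genes were also named after their values were seen. A gene of the interferon-gamma list and a marker of the immune list are not reported here and were left out of those lists' counts.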

Additional observations from a re-analysis of the deposited data

How the results depend on the processing

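With all 6 libraries edgeR called 3 genes in CRNN against GFP, 1 in CRNN against untreated and 0 in GFP against untreated. With each library left out in turn these counts ranged from 0 to 15, 1 to 957 and 0 to 966, the highest without untreated replicate 2, and the class II members called were 0, 0 to 1 and 0 to 2. Without a filter 34, 152 and 195 genes were called, with CD74 the 1 member (GFP against untreated, log2 fold change -1.63, adjusted p = 0.0386). DESeq2 called 22, 7 and 29 genes and no member, and gave no adjusted p for HLA-DRA, HLA-DRB1 or HLA-DMA in CRNN against GFP. Fitted alone, CRNN and GFP gave 13 genes, and the GC and length correction 1, with or without the replicate block.

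The replicate numbers were not taken to pair libraries: differences between replicates 1 and 2 had r = 0.25 (CRNN and GFP), -0.068 (CRNN and untreated) and 0.19 (GFP and untreated) over 11664 genes. With the replicate block edgeR called 4, 1 and 0 genes and no member.

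Of 236 values of members under alternatives, 219 kept direction and side of the threshold, 4 passed newly and 13 changed sign. In CRNN against untreated HLA-DRA was at 0.22 by limma-voom and 0.059 with the replicate block, and HLA-DMA at -0.030 after the GC and length correction; the cause was not tested. With single libraries left out, CRNN against GFP ranged from -0.081 to 3.59 for HLA-DRB1 and -0.91 to 0.18 for RFXAP. CRNN against untreated ranged from -1.10 to 0.96 for CD74, -0.79 to 1.34 for HLA-DRA, -1.40 to 1.25 for HLA-DRB1, -0.57 to 1.15 for HLA-DMA, -0.39 to 0.15 for NFYB, -0.59 to 0.24 for IFNGR1, -0.53 to 0.31 for IFNGR2, -0.0095 to 0.27 for CTSH, -0.73 to 0.57 for CTSS, -0.086 to 0.57 for MARCHF8 and -0.070 to 0.65 for MIF. GFP against untreated ranged from -0.65 to 1.57 for CIITA, -4.21 to 0.27 for HLA-DRB1 and -0.35 to 0.77 for IRF1. HLA-DRA did not pass the filter when GFP and untreated cells were fitted alone, nor HLA-DRB1 that of 1 CPM in 2 libraries. Counts under 10 in GFP limit what HLA-DRA, HLA-DRB1, HLA-DPA1 and HLA-DMB can show.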
